A study of Mus musculus with 2 samples.

Results

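Mir221 and Mir222 are neighbouring microRNA genes of the mouse X chromosome, and both were taken from the annotation by their names, as 2 of the 2202 microRNA genes counted in the series. The libraries came from C2C12 myocytes after 72 h of differentiation. C2C12 is a mouse line of myoblasts, dividing muscle precursors, from a crushed thigh muscle of a C3H mouse, and its cells stop dividing and fuse into muscle fibres on induction. There was 1 group with 2 libraries, labelled as biological replicates 1 and 2 and made from total RNA by a microRNA protocol that keeps short RNA. The line is a single established one, no treatment other than differentiation is given, and undifferentiated C2C12 cells were not analysed here, so these data show how much of the pair was present at this time and not how it changed. Nothing in the labels states that the cultures were differentiated separately, and differences between the libraries may be technical.

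MicroRNAs are cut from hairpin precursors into mature strands, the 5p and 3p arms, which guide silencing proteins to messenger RNAs. Target choice rests mainly on the seed, bases 2 to 8 of the mature strand. The 3p strands of miR-221 and miR-222 share a seed and are best known as repressors of the CDK inhibitor p27 (Cdkn1b), and also of p57 (Cdkn1c), through which they favour entry into the cell cycle. In muscle cells they have been described as abundant in dividing myoblasts and lower once the cells withdraw from the cycle. They are also abundant in endothelium and vascular smooth muscle.

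The sequences show what the 2 genes share and what the read counts can separate. In each mature strand the capitals mark the seed.
miR-221-3p: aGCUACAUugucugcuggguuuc
miR-222-3p: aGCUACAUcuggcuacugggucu
miR-1928: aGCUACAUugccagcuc
miR-221-5p: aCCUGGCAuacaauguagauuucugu
The sequences are those of RefSeq for the GRCm38.p6 build. Of the 1738 mature strands in that table, 3 carried the seed of miR-221-3p, and the seed of miR-221-5p occurred in 1 strand, its own. Over their 23 positions, miR-221-3p and miR-222-3p had the same base at 11, and the first 8 were identical without a break. The gene of the third strand, Mir1928 on chromosome 1, had 0 counts in replicate 1 and in replicate 2. A count of 0 allows a level of up to 3 counts, or 0.396 CPM and 0.304 CPM in these libraries, where CPM are counts per 1000000 sense-strand counts of all microRNA genes. Among the annotated carriers of this seed, Mir221 and Mir222 were therefore the ones with counts.

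The whole hairpins are shown because each count is a count of a hairpin gene, with both arms in it. Here the capitals mark the mature strands that RefSeq lists.
Mir221: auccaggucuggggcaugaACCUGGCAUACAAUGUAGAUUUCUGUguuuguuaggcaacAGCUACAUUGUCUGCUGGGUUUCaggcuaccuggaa
Mir222: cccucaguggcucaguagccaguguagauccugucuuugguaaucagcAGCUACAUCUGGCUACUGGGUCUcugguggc
Mir221 (ENSMUSG00000065422.1) lies at chrX:19146294-19146388 of mm10 on the minus strand, and Mir222 (ENSMUSG00000065471.1) at chrX:19146893-19146971 on the same strand, upstream of Mir221. The hairpins are 95 and 79 bases long, with 504 bases between them. In the GENCODE M21 annotation 0 other genes overlap them. The nearest one is the noncoding transcript gene Gm14636 on the same strand (chrX:19156981-19167241), whose 3′ end lies 10009 bases upstream of Mir222. The longest run of bases that the 2 hairpins have in common is 9. Against all 2201 other hairpins, on either strand, the longest shared run was 13 bases for Mir221 and 12 for Mir222, and 0 hairpins shared 20 bases with either gene. Reads of the pair can thus be told apart from each other and from the other annotated hairpins, unlike those of microRNAs with several copies.

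Mir221 was among the better represented microRNAs of these myocytes. It had 29684 counts in replicate 1 and 18684 in replicate 2. This was 0.392% of the assigned counts in replicate 1 (95% exact Clopper-Pearson interval 0.387 to 0.396%) and 0.189% in replicate 2 (0.187 to 0.192%), and the intervals, which cover counting error only, lie far apart. The level was 3915 CPM in replicate 1 and 1894 CPM in replicate 2, a mean of 2905 ± 1429 CPM (SD, n = 2). By its mean, Mir221 stood at rank 33 of the 314 detected genes, those that reached 10 counts in replicate 1 and also in replicate 2. Its rank was 30 in replicate 1 and 38 in replicate 2.

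Mir222 was present at a lower and more even level. It had 3798 counts in replicate 1 and 4315 in replicate 2, which is 0.0501% (0.0485 to 0.0517%) and 0.0437% (0.0424 to 0.0451%) of the assigned counts. The level was 501 CPM in replicate 1 and 437 CPM in replicate 2, a mean of 469 ± 45.0 CPM (SD, n = 2) and rank 87 (88 in replicate 1 and 81 in replicate 2). For scale, the median detected gene had a mean of 53.1 CPM, so both genes were in the upper part of the range. All counts of both genes were in the sense orientation, with 0 antisense counts for either gene in either library.

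The place of each gene in the order of levels is only as exact as the spread of its libraries. The means of 13 other genes fell between the 2 values of Mir221. Its neighbours in rank were Mir191 and Mirlet7g above and Mir214 and Mir30e below. Mir191 had 2969 CPM in replicate 1 and 3110 in replicate 2, both inside the range of Mir221. Mirlet7g, of the let-7 family that rises as cells differentiate, had 4669 and 1221 CPM, a wider range that encloses that of Mir221. Mir214, a microRNA tied to myogenic differentiation, had 2359 and 3329 CPM, and Mir30e had 2408 and 3262 CPM. None of these 4 neighbours was separated from Mir221 by more than the spread between the libraries. Mir191 and Mir30e each share at least 20 bases with another annotated hairpin, on the same or the opposite strand. This makes their counts uncertain only where that hairpin is a copy elsewhere in the genome, which was not examined.

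The means of 6 other genes fell between the 2 values of Mir222. Directly above it stood Mir181a-1 with 563 CPM in replicate 1 and 381 in replicate 2, a count made uncertain by its copy Mir181a-2, and Mir499, the microRNA of the myosin gene Myh7b, with 564 and 378 CPM. Directly below stood Mir155, an immune microRNA that is also found in dividing myoblasts, with 651 and 271 CPM, and Mir139 with 471 and 446 CPM. These ranges all overlap that of Mir222, and the order within this stretch is not fixed by the data. Both values of Mir222 lay between those of the muscle microRNA Mir499.

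**Figure D1:**
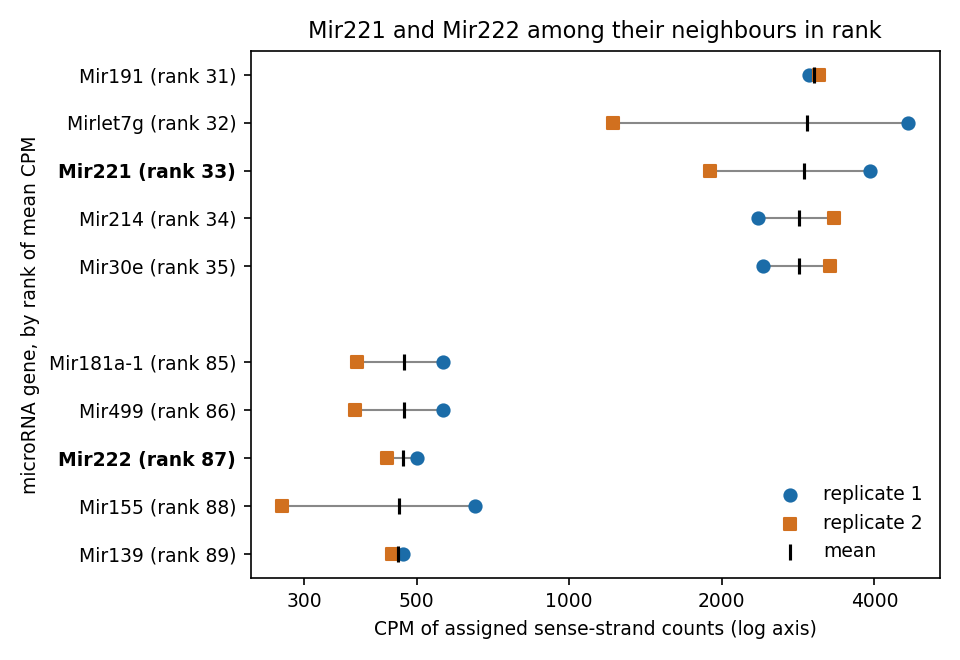
CPM (log axis) of Mir221, Mir222 and the genes at the 2 ranks above and below each, with replicate 1 as circles, replicate 2 as squares and the mean as a bar. Mir221 spans 1894 to 3915 CPM and Mir222 only 437 to 501 CPM, and the range of every neighbour shown overlaps that of its member.

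When likeness was measured over both libraries (Euclidean distance of log2(CPM + 1) over the 2 libraries), the genes nearest to Mir221 were Mir27a at a distance of 0.28, Mirlet7d at 0.51 and Mir28a at 0.52. Mir27a had 3220 CPM in replicate 1 and 1939 in replicate 2, Mirlet7d 2825 and 1656, and Mir28a 2904 and 1553. All 3 were, like Mir221, higher in replicate 1. Mir27a and Mir28a share sequence with another hairpin. Nearest to Mir222 were Mir139 at 0.09, Mir181a-1 at 0.26 and Mir499 at 0.27, which are also its neighbours in rank. With only 2 libraries such nearness describes level and difference in these libraries alone.

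On the X chromosome, 33 of 142 measured microRNA genes were detected, and Mir221 was 5th and Mir222 14th among them by mean CPM. Mir188, next above Mir221, had 4703 CPM in replicate 1 and 4136 in replicate 2. Next below it, Mir500 had 1249 and 1375 CPM. Neither range overlaps the 3915 and 1894 CPM of Mir221, so among X-linked genes its neighbours in rank were separated from it in both libraries. Mir98, next above Mir222, had 989 and 160 CPM and overlaps it. Mirlet7f-2, next below, had 436 and 129 CPM, just under the lower value of Mir222. Its count, and so its place below Mir222, is made uncertain by its copy Mirlet7f-1.

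The libraries differed in Mir221 by more than counting error. Mir221 was 2.07-fold higher in replicate 1 than in replicate 2 (95% counting interval 2.03 to 2.11), a log2 ratio of 1.05. In an exact two-sided binomial test of the counts given the library totals, adjusted by Benjamini-Hochberg over all 314 detected genes, its p was too small for the arithmetic to hold and was returned as 0. Mir222 was 1.15-fold higher in replicate 1 (1.10 to 1.20), a log2 ratio of 0.20 with an adjusted p of 2.63e-09 in the same exact test. This test compares the 2 libraries, not conditions, and such calls were common: 66.6% of all detected genes passed it, 38.2% as higher in replicate 1 and 28.3% as higher in replicate 2. The passing of both genes is thus no result about them.

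The sizes of the differences place the genes apart. Of the 314 detected genes, 61 (19.4%) had a larger absolute log2 ratio than Mir221, whereas 248 (79.0%) had a larger one than Mir222. The median absolute log2 ratio was 0.51. The median log2 ratio was 0.09 with lower and upper quartiles of −0.38 and 0.69, a range that holds Mir222 and not Mir221. The biological coefficient of variation that edgeR estimated over all detected genes was 0.420, beside an SD of 49.2% of the mean for Mir221 and 9.58% for Mir222. The difference of Mir222 rested on the scaling: with Mir206, the most abundant microRNA gene, left out of the library totals, its log2 ratio was 0.019 and its adjusted p in the exact binomial test 0.623. Mir221 kept a log2 ratio of 0.87 in that setting.

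**Figure D2:**
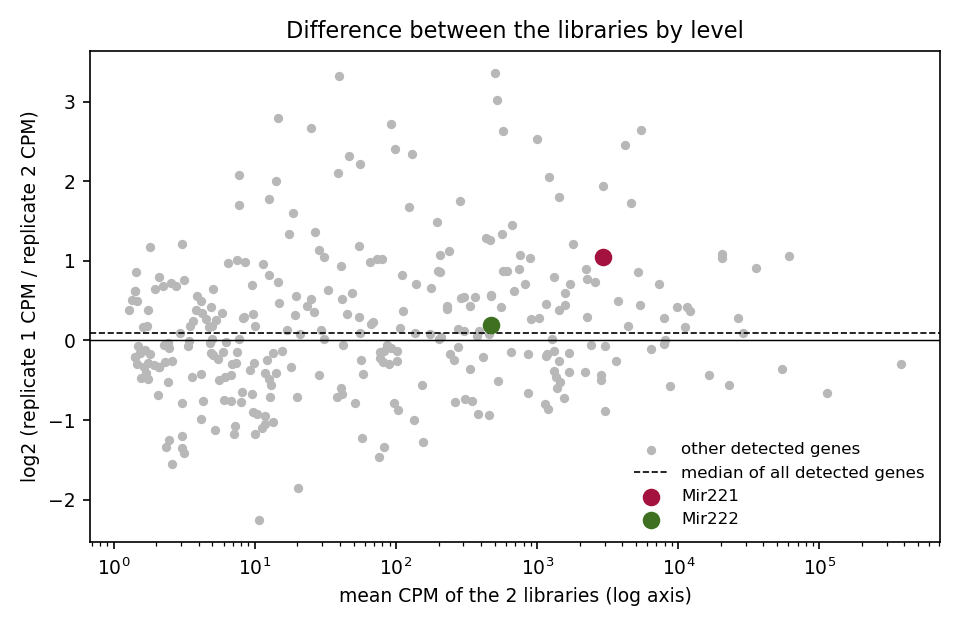
Log2 ratio of replicate 1 over replicate 2 against mean CPM (log axis) for the 314 detected genes, with their median of 0.09 as a dashed line. Mir221 lies at 1.05, above the upper quartile of the genes (0.69), and Mir222 at 0.20, close to the median.

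Within the cluster, Mir221 was the more abundant gene in both libraries, but not by the same factor. The count of Mir221 was 7.82 times that of Mir222 in replicate 1 (95% counting interval 7.56 to 8.09) and 4.33 times in replicate 2 (4.19 to 4.48), a mean of 6.07 ± 2.46 (SD, n = 2). Per base of hairpin the ratios were 6.50 and 3.60. Both arms of a hairpin are in its count, so these are ratios between genes and not between 3p strands. Mir221 gave 88.7% of the cluster's 33482 counts in replicate 1 and 81.2% of its 22999 counts in replicate 2. The ratio in replicate 1 was 1.81 times that in replicate 2 (95% counting interval 1.72 to 1.89), a quantity that does not depend on how the libraries are scaled. The genes lie 504 bases apart on the same strand, and their counts still did not move in step between the libraries.

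Such uneven change was common among clustered microRNAs. Besides Mir221 and Mir222 there were 59 pairs of adjacent detected genes on the same strand at most 10 kb apart. The log2 ratio within Mir221 and Mir222 differed by 0.85 between the libraries, against a median absolute difference of 0.63 in the other pairs (quartiles 0.28 and 1.55), and 28 of the 59 (47.5%) differed by at least as much. Pairs share genes with one another where a cluster holds more than a pair, so the pairs are not independent. Some of their hairpins share sequence, on either strand, with other hairpins, which can leave their counts, and the ratios in those pairs, uncertain. The mean log2 ratio of the more to the less abundant gene was 2.54 for Mir221 over Mir222 and had a median of 2.86 in the other pairs. In 50 of the 59 other pairs the same gene was the higher one in both libraries, as Mir221 was. The pairs closest in the size of their change were Mirlet7b with Mirlet7c-2, where the ratio was 307 in replicate 1 and 556 in replicate 2, Mir214 with Mir199a-2 (80.6 and 146), and Mir98 with Mirlet7f-2 (2.27 and 1.24). The less abundant gene of each has a copy, Mirlet7c-1, Mir199a-1 and Mirlet7f-1 in this order. Reads that map to both copies are given to neither, so these ratios are uncertain.

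**Figure D3:**
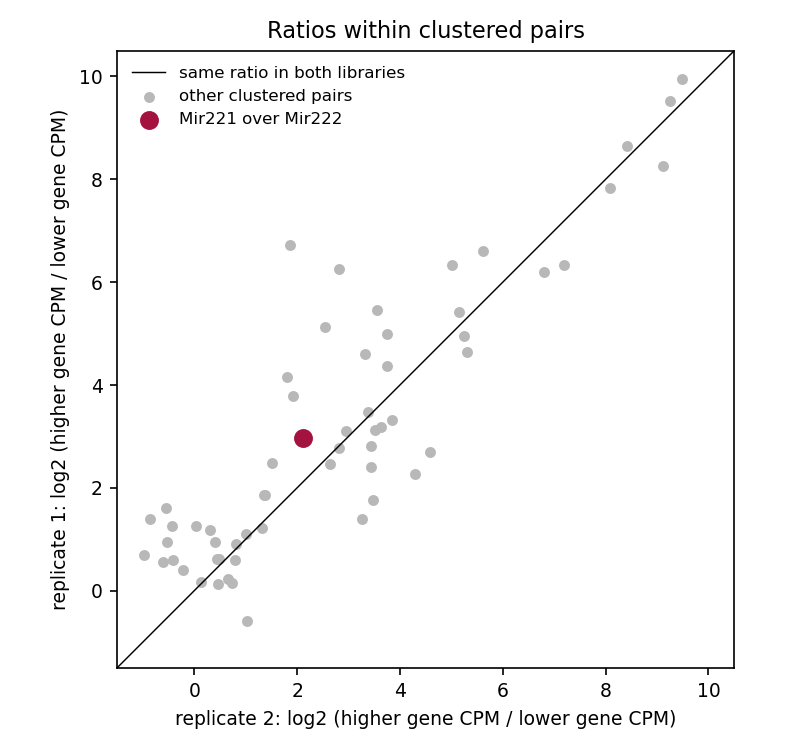
Log2 ratio of the gene with the higher mean CPM over the gene with the lower one in each of the 60 adjacent pairs, replicate 1 against replicate 2, with the line of equal ratios. Mir221 over Mir222 lies above the line, at 2.97 in replicate 1 and 2.11 in replicate 2, within the scatter of the other pairs.

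Summed over the cluster, the level was 4416 CPM in replicate 1 and 2331 CPM in replicate 2, a mean of 3374 ± 1474 (SD, n = 2). Of the 40 genomic clusters with at least 2 detected genes, linked at the same distance of 10 kb, this was the 18th by summed mean CPM. Next above was the cluster of Mir25, Mir93 and Mir106b, a relative of the miR-17-92 cluster, with 4871 and 3568 CPM, and next below that of Mir296 and Mir298 with 3823 and 2646 CPM. Both ranges overlap that of Mir221 and Mir222.

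Mir221 and Mir222 were then set beside other microRNAs of the cell cycle. A list of 6 microRNAs of proliferating myoblasts held Mir31, Mir125b-1, Mir125b-2 and Mir155 besides them. All 6 were detected, and 6 passed the exact binomial test as higher in replicate 1, as 38.2% of all detected genes did. Passing this test depends on abundance, and all 6 had at least 100 counts in each library. Among the 187 genes with at least 100 counts in each library, 104 passed as higher in replicate 1. Mir31 had 9340 CPM in replicate 1 and 1498 in replicate 2 (5419 ± 5545, SD, n = 2), so that Mir221, the second most abundant of the list, was the higher of these 2 genes in replicate 2 and the lower in replicate 1. Mir125b-1 had 1139 and 937 CPM, and Mir125b-2, with which it shares sequence, had 315 and 288. Mir221 and Mir222 made up 27.8% of the list's 15861 CPM in replicate 1 and 43.8% of its 5325 CPM in replicate 2. The median log2 ratio was 0.67, against 0.09 over all detected genes and 0.28 over those with at least 100 counts in each library. With Mir206 left out of the totals, 4 of the 6 passed as higher in replicate 1, where 33.1% of all detected genes did.

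The second list held microRNAs reported to target CDK inhibitors, namely Mir221 and Mir222 and members of the miR-17 and miR-25 families, which are tied to p21 and p57. Of its 12 measured genes 11 were detected, and 8 passed as higher in replicate 1 and 0 as higher in replicate 2, beside 38.2% and 28.3% of all detected genes. Mir17, a miR-17-92 member, led it with 6624 CPM in replicate 1 and 3652 in replicate 2 (5138 ± 2102, SD, n = 2). After Mir221 followed Mir93 with 2480 and 2022 CPM and Mir106b with 2104 and 1285 CPM. Mir221 and Mir222 together held 25.6% of the list's CPM in replicate 1 and 23.2% in replicate 2, a share that moved less than their share of the first list. Passing depends on abundance here too: 104 of the 187 genes with at least 100 counts in each library passed as higher in replicate 1. Mir32, Mir92-2 and Mir106a were below that minimum in at least 1 library. The list's median log2 ratio was 0.65, against 0.09 over all detected genes and 0.28 over those 187. Mir92-1 and Mir92-2 share sequence with each other, so their counts are uncertain. With Mir206 left out of the totals, 6 genes passed as higher in replicate 1 and 1 as higher in replicate 2, beside 33.1% and 35.4% of all detected genes.

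MicroRNAs that act in the opposite sense on the cell cycle went the same way between the libraries. The list of cell-cycle brakes held the miR-15/16 family with its relatives Mir322 and Mir503 and the miR-34 genes. It had 11 of 11 measured genes detected, and 11 passed as higher in replicate 1, as 38.2% of all detected genes did. All 11 had at least 100 counts in each library, and among the 187 such genes 104 passed as higher in replicate 1. With Mir206 left out of the totals, 10 passed, beside 33.1% of all detected genes. The median log2 ratio of the list was 1.29, against 0.28 over the genes with at least 100 counts in each library. Mir322 had 27578 CPM in replicate 1 and 13017 in replicate 2, Mir34c 7130 and 1298, Mir15a 2234 and 643, and Mir34a 1961 and 473. The summed level was 42414 CPM in replicate 1 and 17577 in replicate 2, above that of either list that holds Mir221 and Mir222 in both libraries. Mir16-1, Mir16-2 and Mir497 share sequence with other hairpins.

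**Figure D4:**
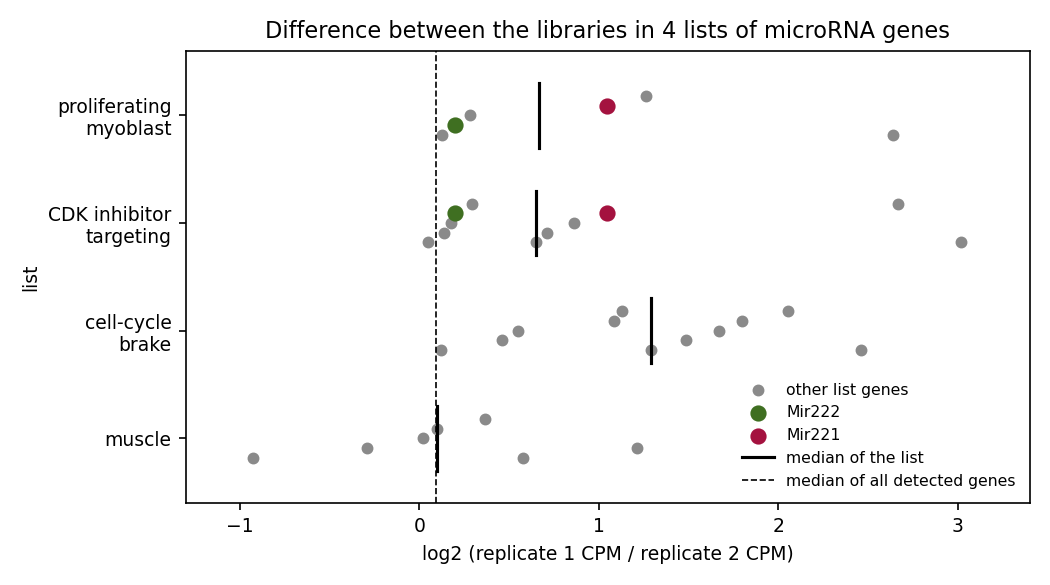
Log2 ratio of replicate 1 over replicate 2 for each detected gene of 4 lists, with a bar at each list's median and a dashed line at the median of all detected genes (0.09). Mir221 at 1.05 and Mir222 at 0.20 lie on either side of the medians of the proliferating myoblast list (0.67) and the list of CDK inhibitor targeting microRNAs (0.65), and the muscle list has a median of 0.10.

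The labelled cell type was checked against muscle microRNAs. Of 9 measured, 7 were detected, led by Mir206 with 340841 CPM in replicate 1 against 416794 CPM in replicate 2. Mir1a-1, of the classical muscle family of miR-1, had only 23 and 28 counts, which are uncertain because its sequence has copies. The undetected ones were Mir133a-1 and Mir133a-2, which share sequence with Mir133b. Of the 7, 3 passed as higher in replicate 1, namely Mir133b, Mir499 and Mir1a-2. Another 2, Mir206 and Mir208b, passed as higher in replicate 2. These counts are near the shares of all detected genes (38.2% and 28.3%). Mir221 was therefore higher in the library in which Mir206 and Mir208b were lower and Mir133b, Mir499 and Mir1a-2 were higher. With 2 libraries no relation between Mir221 and these genes can be tested. Mir206 took so large a part of the assigned counts that the CPM of every other gene depend on it.

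Some markers of other cell types also differed between the libraries. The endothelial list, Mir126a and Mir126b, had 2 of 2 genes detected and a sum of 219 CPM in replicate 1 against 44.5 CPM in replicate 2, with Mir126a at 217 and 42.9 CPM. Mir126b, at 1.85 and 1.62 CPM, did not pass the exact binomial test (adjusted p = 0.767). It lies within Mir126a on the opposite strand, so its reads are antisense to that hairpin and not a separate marker. The smooth muscle and fibroblast list had 2 of 2 measured genes detected. It summed to 48300 and 27235 CPM, where Mir143 was higher in replicate 1 and Mir145a in replicate 2. The blood list had 2 of 5 genes detected and summed to 105 and 183 CPM. Mir142 carried the sum with 89.0 and 178 CPM and passed as higher in replicate 2, and Mir451a, with 11.9 and 3.65 CPM, passed as higher in replicate 1. The undetected blood markers had 26 and 7 counts for Mir144, 1 and 13 for Mir150, and 2 and 1 for Mir223. Mir126a, Mir142 and Mir451a each share at least 20 bases with another annotated hairpin, on either strand, which for Mir126a is Mir126b. With either-strand counts, 0 genes of the endothelial list and 0 of the blood list were detected. Mir126a and Mir126b overlap on opposite strands, so a count that ignores strand cannot tell their reads apart. The loss therefore does not show that these reads were absent. For the blood genes the reason was not examined. In the sense-strand counts no marker of these lists was at 0 in both libraries, and the part of these microRNAs in the difference of Mir221 was not tested. Replicate 1 had 7581366 assigned counts of 15349205 reads (49.4%) and replicate 2 had 9865298 of 18450359 (53.5%), and each count of Mir221 and Mir222 lies far above the limit of 3.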

How the data were processed

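Short RNA of 2 libraries was sequenced and, per the labels, adapters were trimmed. The authors deposited raw counts of reads per microRNA gene, against mm10 and GENCODE M21 per the notes deposited with the files. The aligner and its version: not given in the sources used here. Their layout is that of a STAR count table, in which uniquely mapped reads alone are given to genes, and multi-mapped reads (22.0% of replicate 1, 17.9% of replicate 2) to none. The sense-strand column was used, the 4 entries that are no gene were left out, and all 2202 identifiers matched M21. Adapter ligation favours some sequences over others, so counts of different microRNAs are not molar amounts. There are no molecular identifiers, so intervals cover counting error only.

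CPM were computed from totals of the sense counts. Libraries were compared by exact binomial tests (scipy 1.17.1) with Benjamini-Hochberg adjustment at 0.05, and dispersion came from edgeR 4.0.16 (TMM, intercept only). Both were run on simulated data. The simulated counts for the binomial test held counting error only, so they do not show how it behaves under the spread between these libraries. DESeq2 1.42.0 gave alternative size factors. Genes were named by rank, by nearness over both libraries, by nearness of the change in a pair and as the most abundant of each list. Mir1928 was named for its seed. The X-linked and cluster neighbours and the further marker genes were chosen after their values were seen. Members and lists were chosen with earlier results of these data known.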

Additional observations from a re-analysis of the deposited data

How the results depend on the processing

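Of 52 recomputed values, 44 stayed within the spread between the libraries, within 1.5 times a count or on the same side of the threshold, 7 moved, 1 lost its call and 0 turned direction. Some of the 44 could not have come out otherwise. Leaving out 1 of 2 libraries returns the CPM or ratio of the other, which always lies within their SD. A minimum count cannot alter a gene's log2 ratio. With 0 antisense counts, either-strand counting cannot alter the ratio of Mir221 to Mir222. With all reads as denominator the mean was 1473 CPM for Mir221 and 241 for Mir222, and without Mir206 in the denominator it was 4594 and 755; these shifts follow from the size of the denominator. With either-strand counts, where fewer genes keep counts, Mir222 had 535 CPM and rank 81. Leaving out each replicate gave 1894 to 3915 CPM and ranks 30 to 38 for Mir221, 437 to 501 CPM and ranks 81 to 88 for Mir222, and ratios of Mir221 to Mir222 of 4.33 to 7.82. The log2 ratio of Mir222 between the libraries lost its call without Mir206 in the denominator (0.019, adjusted p = 0.623 in the exact binomial test). It was 0.08 to 0.20 in its other alternatives, and that of Mir221 was 0.87 to 1.05. Minimums of 1 and 100 counts left both ranks at 33 and 87, and linking pairs over 50 kb gave 31 of 70 other pairs (44.3%) with at least the same change. No paired analysis was possible because there was 1 group. Depth did not limit either gene, and the number of libraries did.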
